A study of Mus musculus with 15 samples.

Results

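The replication-dependent histone genes were examined in kidney RNA of 15 male C57BL/6 mice (C57BL/6J in the study's methods), 5 at 3 months, 5 at 12 months and 5 at 24 months of age. Members were all genes whose symbol began with Hist1h, Hist2h, Hist3h or Hist4h. They numbered 66 of the 33058 genes in the table of linear transcripts, and 53 lay on chromosome 13, 9 on chromosome 3, 3 on chromosome 11 and 1 on chromosome 6 (GRCm38). By protein, 5 encoded linker histone H1, 18 H2A, 19 H2B, 12 H3 and 12 H4, the Hist3h2bb-ps pseudogene being counted with H2B. The labels name no treatment or genetic change, so age is the only labelled difference between the groups. Each library is labelled as kidney and is taken here as 1 mouse. The study's methods number individual young and old mice, and speak once of pooled RNA, while the labels do not state separate animals. If samples were not separate animals, p-values measure only the spread between samples. The age labels were used for the groups, although 10 sample titles carry the prefix of another age. Levels are given in FPKM, fragments per length of transcript and per sequencing depth. Defining kidney transcripts were present throughout, with Slc34a1, the proximal tubule phosphate carrier, at 716 to 1155 FPKM and Umod, the uromodulin of the thick limb, at 689 to 999 FPKM.

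Replication-dependent histones package newly made DNA, and their genes are normally transcribed during S phase. Most of their mRNAs have no intron and no poly(A) tail. The mRNA ends instead just after a short stem-loop in the 3′ UTR, which is bound by the stem-loop binding protein Slbp, and the mRNA is degraded when DNA synthesis stops. Adult kidney tubule cells divide rarely. Some of these genes can also give spliced or polyadenylated mRNAs in cells that have left the cycle.

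The stem-loops of the members that carried most of the signal or that differed between ages are shown first, because this element sets how the mRNA ends and therefore how it enters a library. Letters in capitals are the stem-loop and those in lower case are the flanking bases, written 5′ to 3′ on the transcript strand from GENCODE M21 models of the deposited transcripts. All lie in the 3′ UTR. The windows span chr3:96239779-96239804 for Hist2h2aa2, chr3:96220413-96220438 for Hist2h2ac, chr13:21810893-21810918 for Hist1h2ao and chr13:23571838-23571863 for Hist1h2bg. The others span chr13:23761885-23761910 for Hist1h3a, chr13:23760795-23760820 for Hist1h4a, chr13:23531453-23531478 for Hist1h4h, chr13:23698084-23698109 for Hist1h4c and chr3:96262934-96262959 for Hist2h4. Hist1h2ao, Hist1h2bg and Hist1h4h are on the plus strand and the other genes listed on the minus strand.
Hist2h2aa2: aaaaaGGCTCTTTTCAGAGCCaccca
Hist2h2ac: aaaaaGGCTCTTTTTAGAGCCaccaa
Hist1h2ao: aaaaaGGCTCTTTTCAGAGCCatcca
Hist1h2bg: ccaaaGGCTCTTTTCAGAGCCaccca
Hist1h3a: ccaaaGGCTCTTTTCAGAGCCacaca
Hist1h4a: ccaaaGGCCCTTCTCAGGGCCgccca
Hist1h4h: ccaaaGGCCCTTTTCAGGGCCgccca
Hist1h4c: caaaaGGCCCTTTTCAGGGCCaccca
Hist2h4: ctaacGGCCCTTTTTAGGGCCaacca

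The stem-loop was searched on the transcript strand after the stop codon as a pattern of 16 bases that began with GG, then any 2 bases, then CTTNT with N for any base, then any base, then AG, then any 2 bases, and ended with CC. It was present in 45 of 72 deposited member transcripts with an Ensembl identifier, from 43 of the 66 genes. Across the annotation whole transcripts were searched, without the limit to bases after the stop codon. The pattern was present in 314 of 141767 transcripts (0.221%), of which 48 carried the name of a member gene. In the matching member transcripts the element began 21 to 58 bases after the stop codon, with a median of 31. In all 12 H4 genes the stem opened with GGCC or GGTC, while in the 31 matching genes of H1, H2A, H2B and H3 it opened with GGCT. Of the transcripts without a match in the annotated model, 15 were models that ended within 30 bases of the stop codon, so that the element could not be searched. Another 12 transcripts, which held 38.2% of the summed mean FPKM, had no match, among them Hist1h2bc, Hist2h3b, Hist2h2be and the spliced models of Hist1h2bq and Hist1h2br. The Hist2h3b model ends 37 bases after the stop codon, so an element of 16 bases at the median distance would not fit in it. Hist1h2aj, Hist1h2al and Hist3h2bb-ps had no annotated stop codon. For these genes the lack of a match does not show that the element is absent. For Hist1h3g the deposited model ended before the element.

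Hist1h2bc, which encodes an H2B and had the highest level of all members, was one of these 12. Its deposited model is spliced, as are those of the low H2B genes Hist1h2bq and Hist1h2br, with 2 exons at chr13:23684199-23692488 on the plus strand, and no match was found in it. The first exon ends 9 bases after the stop codon, which is closer to the stop codon than the stem-loop of any matching member. An intron of 7554 bases follows in the annotation. The last bases of exon 1 and the first 8 bases of exon 2 are shown, with the stop codon in capitals.
Hist1h2bc: tccaagTGAtcctgccaagaggagca

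Histone genes are near-identical copies, and reads cannot always be assigned to 1 of them. Windows of 150 bases, the read length of the study, were compared with all other annotated transcripts that do not overlap the gene. The windows came from the GENCODE M21 models, of which 51 of 72 had the deposited length. In 55 of 72 member transcripts at least 1 window was found again elsewhere, and in 4 transcripts every window was. Of these 4, those listed as Hist1h2bm and Hist1h2bh carry another gene name in the annotation. Hist2h2aa2 was fully shared with Hist2h2aa1, a second copy of the gene, so the reads of both cannot be told apart. The shared proportion was 91.5% for Hist1h2ao and 91.0% for Hist1h2ap, each with 11 other genes that include the other of the pair. It was 77.2% for Hist1h4n, with Hist1h4m. Hist2h2ac, Hist2h4 and the H1 genes had no shared window.

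Levels of the members ranged over several orders of magnitude. Averaged over 15 mice, Hist1h2bc had 69.05 FPKM and Hist2h2aa2, an H2A gene, had 39.2 FPKM. The H4 genes Hist2h4, Hist1h4h and Hist1h4c followed with 15.05, 12.7 and 11.1 FPKM. Hist1h2bg had 7.10 FPKM, Hist2h2ac 5.66 FPKM and Hist2h3b, the highest H3 gene, 4.88 FPKM. Only 19 of the 66 genes reached a mean of 1 FPKM, 9 of them H4 genes. The linker histone genes were low, with Hist1h1c highest at 1.33 FPKM, followed by Hist1h1e at 0.936 FPKM and Hist1h1d at 0.416 FPKM. Hist1h1t, the testis H1 gene, averaged 0.0655 FPKM. The median over all members was 0.446 FPKM. FPKM divides by the whole deposited length, and this length runs 1257 bases past the stem-loop in Hist2h4 and 2445 bases past it in Hist4h4.

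**Figure D1:**
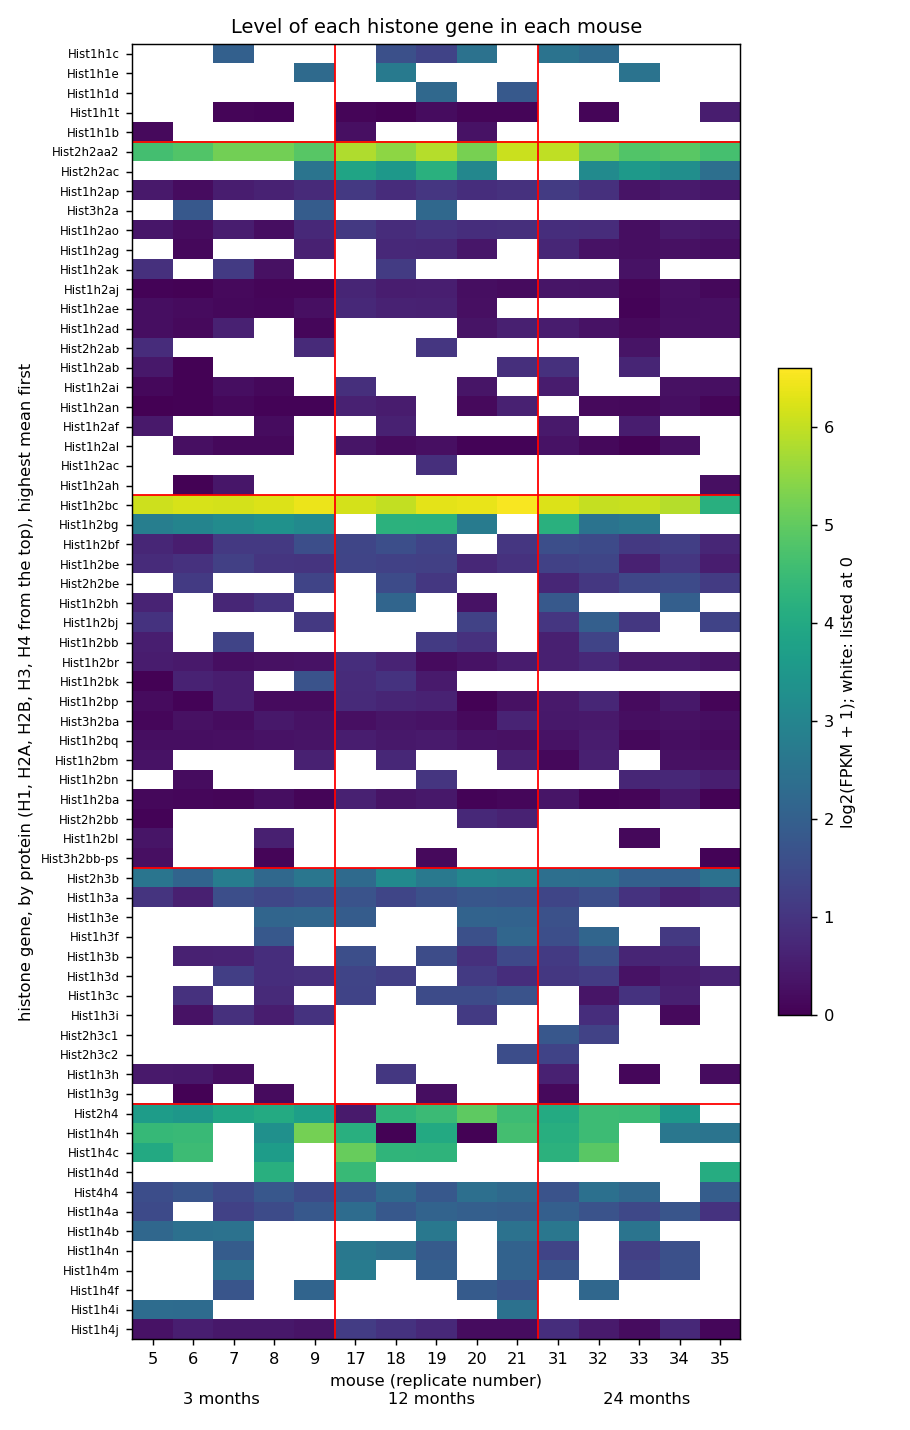
Level of each of the 66 histone genes (rows, grouped by protein) in each of the 15 mice (columns, by age), as log2(FPKM + 1), with white for values listed at 0. Hist1h2bc and Hist2h2aa2 were above 0 in all mice, whereas H4 genes such as Hist1h4c were at 11.6 to 32.6 FPKM in some mice and at 0 in others.

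Many members were listed at 0 in some mice and at a sizeable level in others of the same age. Among the 19 members with a mean of at least 1 FPKM, 14 (73.7%) were at 0 in at least 1 mouse, against 468 of 13427 other genes (3.49%). Restricted to single-exon genes of up to 1000 bases, the numbers were 10 of 13 members and 161 of 437 other genes (36.8%). Hist1h4c, an H4 gene, had 15.1, 22.2, 0, 11.6 and 0 FPKM in the mice aged 3 months, 32.6, 19.1, 18.6, 0 and 0 FPKM at 12 months and 17.8, 28.9, 0, 0 and 0 FPKM at 24 months. Each age held both high mice and mice at 0. Hist1h4h, another H4 gene, had 20.6, 21.2, 0, 8.93 and 36.3 FPKM at 3 months, 16.9, 0.0208, 15.1, 0.0345 and 23.8 FPKM at 12 months and 16.5, 22.0, 0, 5.14 and 4.77 FPKM at 24 months, again with no separation of the ages. A value of exactly 0 in such a gene can be a failed estimate for that library, and this was not tested. Only 14 members were above 0 in all 15 mice.

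The summed level of all 66 genes was highest at 12 months. It was 170 to 213 FPKM at 3 months (median 185), 206 to 278 FPKM at 12 months (median 255) and 83.3 to 257 FPKM at 24 months (median 162). Aligned bases of the 12-month libraries were 7.21, 6.57, 8.03, 5.84 and 7.17 Gb, and their histone sums were 255, 222, 278, 206 and 262 FPKM. The 2 lowest sums came from the 2 shallowest libraries at this age, and the 12-month libraries had the highest median depth, 7.17 Gb against 6.04 Gb at 3 months and 7.00 Gb at 24 months. At 24 months the shallowest library, with 6.07 Gb, had the second highest sum. The part of depth in the sums was not tested. The ratio of medians was 1.38 for 12 over 3 months and 0.877 for 24 over 3 months. The lowest 12-month mouse lay below the highest 3-month mouse, so these ages overlapped slightly. The 24-month mice spread most, with an SD of 70.3 FPKM against 17.8 FPKM at 3 months and 29.8 FPKM at 12 months (n = 5 each). Replicates 31 and 32 had 257 and 229 FPKM, replicates 33 and 34 had 162 and 136 FPKM, and replicate 35 had 83.3 FPKM. Without replicate 34 or without replicate 35 the ratio of 24 over 3 months became 1.06, so no direction can be given. As the genes were chosen with earlier results of these data known, no test was applied to the sum.

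**Figure D2:**
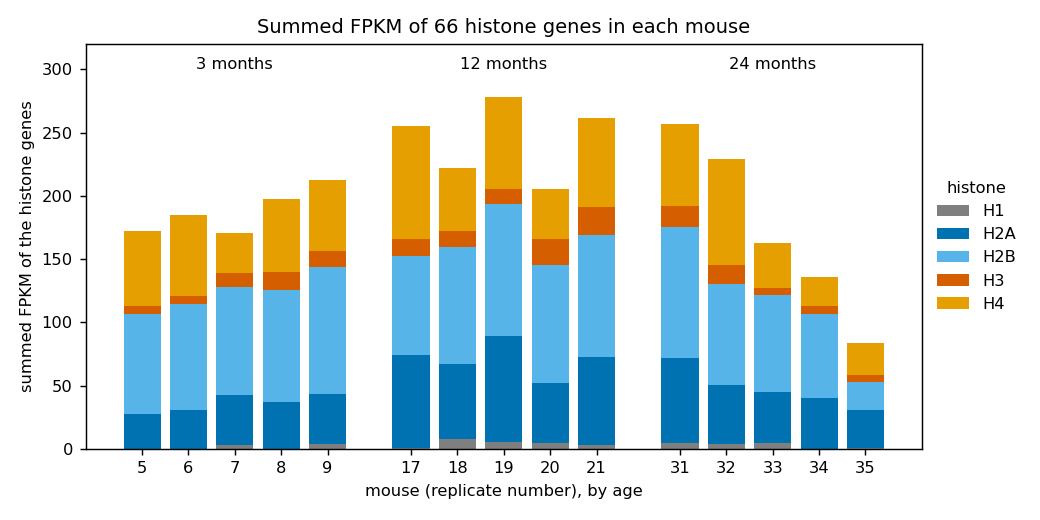
Summed FPKM of the 66 histone genes in each mouse (bars, replicate numbers on the x axis, grouped by age), divided by the protein encoded. The 12-month bars reach 206 to 278 FPKM, the 3-month bars 170 to 213 FPKM and the 24-month bars 83.3 to 257 FPKM.

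By protein, the medians at 3 and 12 months differed most in FPKM for H2A, at 37.0 and 70.3 FPKM. Summed H1 was low, at 0 to 3.87 FPKM, 0.255 to 7.56 FPKM and 0 to 4.70 FPKM at 3, 12 and 24 months, and its medians of 0.133 and 4.93 FPKM at 3 and 12 months differed most as a ratio. Summed H2A was 27.5 to 39.2 FPKM at 3 months, 47.3 to 83.5 FPKM at 12 months and 30.2 to 67.1 FPKM at 24 months, and the 3-month and 12-month mice did not overlap. Most of this sum came from Hist2h2aa2 and Hist2h2ac. Of mean H2A sums of 34.7 and 66.9 FPKM at 3 and 12 months, Hist2h2aa2 had 30.1 and 51.8 FPKM and Hist2h2ac 0.956 and 9.70 FPKM. The H2A difference is thus not separate from the results of these genes given below. Summed H2B was 79.3 to 101 FPKM, 78.1 to 105 FPKM and 22.2 to 103 FPKM at the same ages. The ranges of H2B overlapped throughout. Summed H3 was 5.90 to 14.3 FPKM, 11.3 to 22.4 FPKM and 5.91 to 16.9 FPKM, and summed H4 was 31.3 to 64.7 FPKM, 40.2 to 89.4 FPKM and 22.7 to 83.6 FPKM. Of the 66 genes, 40 had their highest mean at 12 months (60.6%), against 38.6% of all genes. Of the 19 genes with a mean of at least 1 FPKM, 15 did (78.9%), against 39.8% of all genes at that level.

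The comparison of 24 with 3 months, the young and old ages of the study, gave few differences. Of 64 members tested with limma, 1 was called at an unadjusted p under 0.05 with an absolute log2 fold change above 1, and the percentage of all genes called was 0.523. At an unadjusted p under 0.05 of any size, 3 members (4.69%) were higher and 0 lower at 24 months, against 11.4% of all genes higher, 3.47% lower and 14.9% in either direction. No member had an adjusted p under 0.05, against 1.22% of all genes. No member separated the 2 ages completely, against 4.73% of all genes. The log2 fold change was above 0 in 37 members (57.8%), against 63% of all genes, and its median was 0.05 against 0.02. Hist1h1d and Hist1h2ac were at 0 in all 10 mice and were not tested.

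Hist2h2ac, an H2A gene at chr3:96220361-96220880, was the called gene. It had 0, 0, 0, 0 and 4.78 FPKM at 3 months, 13.6, 10.5, 17.2, 7.25 and 0 FPKM at 12 months and 0, 7.96, 10.7, 8.62 and 4.28 FPKM at 24 months. Only 1 of the 5 young mice was above 0, whereas 4 of 5 mice were above 0 at each later age, and the ages overlapped. The log2 fold change at 24 against 3 months was 1.97 with an SE of 0.75 (limma, unadjusted p = 0.0266, Benjamini-Hochberg adjusted p = 0.257, exact permutation p = 0.0873). With 4 of 5 young mice at 0 the size depends on the pseudocount, and it was 3.87 with a pseudocount of 0.1 and 3.24 with TPM. This call was lost when any one of 7 of the 10 mice was left out, the 3-month replicates 5, 6, 7 and 8 and the 24-month replicates 32, 33 and 34, with log2 fold changes of 1.70 to 1.84 and unadjusted limma p of 0.0553 to 0.0632. The other 2 genes past an unadjusted p of 0.05, named after their values were seen, were the H2A gene Hist1h2aj (log2 fold change 0.15) and the H2B gene Hist1h2bn (log2 fold change 0.36), both with means under 0.5 FPKM at either age.

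Hist1h2bc had 68.1, 72.7, 71.7, 74.6 and 83.4 FPKM at 3 months, 71.4, 62.3, 78.9, 82.7 and 91.6 FPKM at 12 months and 75.8, 63.5, 65.1, 56.9 and 16.9 FPKM at 24 months. Replicate 35 was far below the other 14 mice, which all lay between 56.9 and 91.6 FPKM. The log2 fold change at 24 against 3 months was -0.56 with an SE of 0.35 (limma adjusted p = 0.517, exact permutation p = 0.0556), and it did not pass the test. The same mouse had the lowest histone sum and was the only one in which Rn7sk, the 7SK RNA that has no poly(A) tail, was listed at 0. Rn7s1, another RNA without a tail, was at 2172 FPKM in this mouse, the highest value at 24 months. The summed level of the listed RNAs without a tail was 2842 FPKM in this mouse, the lowest of all, and 3518 to 8059 FPKM in the others. Rn7s1 was itself at or near 0 in several other mice. The aligned bases of this library, 7.00 Gb, were within the range of the others. The part of this library in the Hist1h2bc values was not tested.

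The comparison of 12 with 3 months gave more differences, all of them higher at 12 months. Of 65 members tested, 2 were called, both higher, against 0.278% of all genes called higher and 0.499% called in either direction. At an unadjusted p under 0.05 of any size, 12 members (18.5%) were higher and 0 lower, against 11.4% of all genes higher, 2.9% lower and 14.3% in either direction. They were 6 of 18 H2A genes, of which Hist1h2ao, Hist1h2ap, Hist1h2aj and Hist1h2an share most of their 150-base windows with other H2A genes and are not separate measurements, 3 of 12 H4 genes, 1 of 19 H2B genes, 1 of 11 H3 genes and 1 of 5 H1 genes. No member had an adjusted p under 0.05, against 0.25% of all genes. In 5 members (7.69%) every 12-month mouse was above every 3-month mouse, against 3.45% of all genes, and 4.11% of all genes did not overlap in either direction. Of these 5, Hist1h2ao, Hist1h2ap and Hist1h2aj share sequence in the same way, so the count does not stand for 5 separate measurements. The log2 fold change was above 0 in 47 members (72.3%), against 64% of all genes, and its median was 0.11 against 0.02. Among the 16 members above 0 in all 10 mice, 6 had an unadjusted p under 0.05, against 19% of all genes with the same filter, and 0 were called, against 0.661%.

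The called genes were Hist2h2ac and Hist1h4n. Hist2h2ac had a log2 fold change of 2.42 with an SE of 0.83 at 12 against 3 months (limma, unadjusted p = 0.016, adjusted p = 0.232, exact permutation p = 0.0476), and of 4.37 with a pseudocount of 0.1 or 3.67 with TPM. It stayed called whichever mouse was left out. Hist1h4n, an H4 gene at chr13:21831767-21832196, had 0, 0, 2.78, 0 and 0 FPKM at 3 months, 5.21, 4.62, 2.70, 0 and 3.18 FPKM at 12 months and 1.56, 0, 1.37, 2.04 and 0 FPKM at 24 months. It was above 0 in 1 young mouse and in 4 mice at 12 months. Its log2 fold change at 12 against 3 months was 1.43 with an SE of 0.56 (limma, unadjusted p = 0.0294, adjusted p = 0.288, exact permutation p = 0.0873), and 3.26 with a pseudocount of 0.1 or 2.57 with TPM. The call was lost without any one of 8 of the 10 mice, all but the 3-month replicate 7 and the 12-month replicate 20, with log2 fold changes of 1.23 to 1.41 and unadjusted limma p of 0.0512 to 0.0684. Hist1h4n shares 77.2% of its windows with Hist1h4m, so the 2 are not separate measurements. Hist1h4m, named after its values were seen, did not pass at 12 against 3 months (log2 fold change 0.87, SE 0.68, limma unadjusted p = 0.230).

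Hist2h2aa2 had the highest level of the genes past an unadjusted p of 0.05. It lies at chr3:96239749-96240276 and had 23.9, 27.2, 35.6, 35.4 and 28.5 FPKM at 3 months, 54.9, 43.7, 56.9, 36.9 and 66.5 FPKM at 12 months and 61.9, 35.4, 27.2, 29.3 and 24.1 FPKM at 24 months. Every 12-month mouse was above every 3-month mouse, while the 24-month mice spanned both. The log2 fold change at 12 against 3 months was 0.75 with an SE of 0.17 (limma, unadjusted p = 0.00151, adjusted p = 0.101), and the exact permutation p was 0.00794, the smallest that 5 against 5 mice can give. At 24 against 12 months it was -0.58 with an SE of 0.25 (limma, unadjusted p = 0.0459, adjusted p = 0.769, exact permutation p = 0.0873). Leaving out each mouse in turn, an unadjusted p under 0.05 was kept in 2 of 10 fits. At 24 against 3 months it was 0.17 with an SE of 0.24 (limma adjusted p = 0.76).

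The other genes in which 3 and 12 months did not overlap were Hist1h2ap and, named after their values were seen, Hist1h2ao, Hist1h2aj and Hist1h4a. Hist1h2ao, an H2A gene, had 0.322, 0.165, 0.452, 0.183 and 0.683 FPKM at 3 months, 1.14, 0.782, 0.960, 0.817 and 0.867 FPKM at 12 months and 0.823, 0.787, 0.179, 0.381 and 0.316 FPKM at 24 months. Its 24-month mice were spread over both ranges. Between 3 and 12 months it differed by a log2 fold change of 0.50 with an SE of 0.12 (limma, unadjusted p = 0.00154, adjusted p = 0.101, exact permutation p = 0.00794). Hist1h2ap, which shares sequence with Hist1h2ao and is not a separate measurement, had a log2 fold change of 0.43, and Hist1h2aj, which shares 89.7% of its windows, had 0.35. These differences on the log2(FPKM + 1) scale understate the ratio of low genes. The ratio of medians at 12 over 3 months was 2.70 for Hist1h2ao, 2.08 for Hist1h2ap and 6.97 for Hist1h2aj. The Hist1h2aj ratio rests on medians of only 0.455 FPKM at 12 months and 0.065 FPKM at 3 months, both close to 0.

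Hist1h4a, an H4 gene at chr13:23760692-23761230, had 1.81, 0, 1.42, 1.83 and 2.51 FPKM at 3 months, 4.08, 2.55, 3.26, 2.96 and 2.83 FPKM at 12 months and 3.00, 2.24, 1.69, 2.32 and 0.953 FPKM at 24 months. All 12-month mice were above the young mice, and 4 of 5 old mice lay within the young range. At 12 against 3 months its log2 fold change was 0.82 with an SE of 0.31 (limma, unadjusted p = 0.0238, adjusted p = 0.266, exact permutation p = 0.00794). Without the 3-month replicate 6, the mouse at 0, it was 0.52. The unadjusted limma p was 0.0743 with a pseudocount of 0.1, 0.0623 with TPM and 0.0542 without the 12-month replicate 17. Hist4h4, the single H4 gene on chromosome 6 and also named after its values were seen, had 1.97, 2.26, 1.76, 2.48 and 1.87 FPKM, 2.44, 3.78, 2.51, 4.30 and 3.79 FPKM and 2.25, 4.44, 3.62, 0 and 2.85 FPKM at 3, 12 and 24 months. The 3-month and 12-month mice overlapped only narrowly. At 12 against 3 months its log2 fold change was 0.49 with an SE of 0.14 (limma, unadjusted p = 0.00709, adjusted p = 0.173, exact permutation p = 0.0159), and the unadjusted limma p was 0.185 with all 15 mice in 1 fit. The remaining 4 genes past an unadjusted p of 0.05 each had a mean under 1 FPKM over the 15 mice. They were the H2A gene Hist1h2an (log2 fold change 0.32), the H3 gene Hist1h3c (0.86), the H2B gene Hist1h2bq (0.13) and the H1 gene Hist1h1t (0.07).

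**Figure D3:**
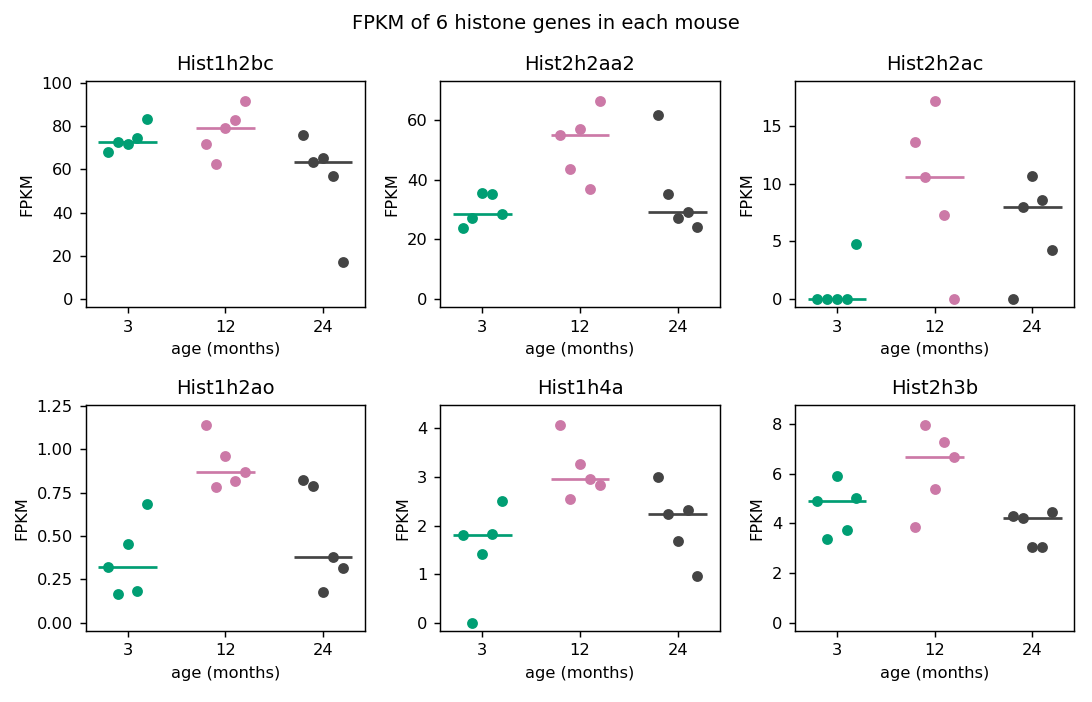
FPKM of 6 histone genes in each mouse (points) by age in months, with the median of the 5 mice as a line and a separate y axis for each gene. Hist2h2aa2, Hist1h2ao and Hist1h4a show every 12-month mouse above every 3-month mouse, and Hist1h2bc shows 1 old mouse at 16.9 FPKM.

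The comparison of 24 with 12 months gave differences in the opposite direction. Of 66 members tested, 0 were called by limma, against 0.17% of all genes. At an unadjusted p under 0.05 of any size, 8 members (12.1%) were lower and 0 higher at 24 months, against 3.36% of all genes lower, 3.07% higher and 6.43% in either direction. No member had an adjusted p under 0.05, against 0.0031% of all genes, and no member separated the ages, against 1.07% of all genes. The log2 fold change was above 0 in 17 members (25.8%), against 48.6% of all genes, and the median was -0.13 against -0.0013 for all genes. The 12-month mice entered both this comparison and the one with 3 months, so the results are not independent of each other. By protein the 8 genes were 3 of H2A (Hist2h2aa2, Hist1h2ao and Hist1h2ae), 3 of H3 (Hist2h3b, Hist1h3a and Hist1h3c), Hist1h2bk of H2B and Hist1h4a of H4.

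Of the H3 genes, Hist2h3b, at chr3:96268654-96269141, had 4.90, 3.36, 5.89, 3.73 and 5.02 FPKM at 3 months, 3.86, 7.97, 5.39, 7.28 and 6.68 FPKM at 12 months and 4.29, 4.2, 3.07, 3.04 and 4.46 FPKM at 24 months. All but 1 of the 12-month mice were above every 24-month mouse. At 24 against 12 months its log2 fold change was -0.57 with an SE of 0.18 (limma, unadjusted p = 0.00936, adjusted p = 0.689, exact permutation p = 0.0317). Hist2h3b shares 73.7% of its windows with Hist2h3c1, Hist2h3c2 and Gm20634. Reads from these windows cannot be assigned to Hist2h3b alone, so this result may not belong to it alone. Hist1h3a had 0.992, 0.494, 2.01, 1.63 and 1.94 FPKM, 2.25, 1.61, 2.04, 2.39 and 2.27 FPKM and 1.61, 2.02, 0.949, 0.509 and 0.725 FPKM at 3, 12 and 24 months. Its 12-month and 24-month mice overlapped only in part. Its log2 fold change was -0.57 with an SE of 0.19 (limma, unadjusted p = 0.0161, adjusted p = 0.714, exact permutation p = 0.0238). Hist1h3e, the third highest H3 gene, was above 0 in 6 of the 15 mice and did not pass in any comparison.

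**Figure D4:**
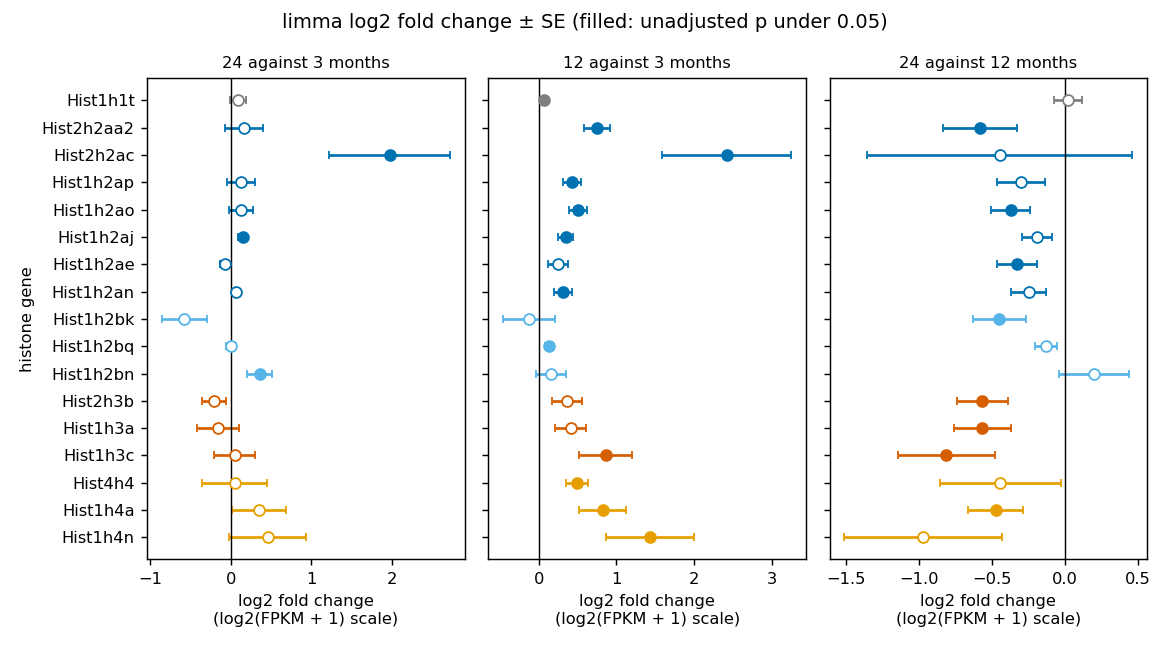
Fitted log2 fold change with its SE (limma, log2(FPKM + 1) scale, n = 5 mice per age, separate x axis in each panel) of the 17 histone genes with an unadjusted p under 0.05 in at least 1 comparison. Filled points passed that p, and all of them lie above 0 in the comparisons with 3 months and below 0 at 24 against 12 months.

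The remaining highest genes of each protein did not pass an unadjusted p of 0.05 in any comparison. Hist2h4, an H4 gene at chr3:96261682-96263311, had 11.5, 10.3, 13.7, 15.3 and 12.3 FPKM at 3 months, 0.403, 18.9, 21.7, 30.05 and 21.9 FPKM at 12 months and 15.4, 22.0, 21.8, 10.4 and 0 FPKM at 24 months. The young mice lay close together, while 1 mouse at each later age was at or near 0. Hist1h2bg, an H2B gene, had 6.12, 6.92, 8.04, 9.14 and 7.96 FPKM at 3 months, 0, 17.7, 17.6, 5.73 and 0 FPKM at 12 months and 17.4, 4.72, 5.22, 0 and 0 FPKM at 24 months, with 2 mice at 0 at each later age. Hist1h2bf, also H2B, ranged from 0 to 2.01 FPKM over the 15 mice. Of the H1 genes, Hist1h1c was above 0 in 6 mice, Hist1h1e in 3 and Hist1h1d in 2.

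Genes of related function were read from the same fits. Their lists were assembled with earlier results of these data known, and the counts are at an unadjusted p under 0.05. Over all genes, 11.4% were higher in each comparison with 3 months, 2.9% were lower at 12 and 3.47% lower at 24 months, and 3.07% were higher and 3.36% lower at 24 against 12 months. The median log2 fold change of all genes was 0.02 in each comparison with 3 months. Of 27 genes of S phase and mitosis, 13 were higher and 0 lower at 12 against 3 months at an unadjusted p under 0.05, with a median log2 fold change of 0.29 against 0.02 for all genes. They included Mki67, the proliferation marker, and Mcm7, a subunit of the replicative helicase. Mki67 was 0.140 to 0.540 FPKM at 3 months and 0.558 to 0.703 FPKM at 12 months, with a log2 fold change of 0.31 and an SE of 0.09 (limma adjusted p = 0.143). Pcna, the polymerase clamp and the highest gene of the list, did not pass (log2 fold change -0.08, SE 0.09). At 24 against 3 months 6 of the 27 were higher, and at 24 against 12 months 2 were lower, Mcm6 and Mcm7. The summed level of the list was 47.1 to 54.9 FPKM at 3 months, 57.3 to 65.1 FPKM at 12 months and 54.3 to 67.6 FPKM at 24 months. The part of proliferating cells in the histone values was not tested, and in bulk kidney RNA fewer cells of a type and less RNA per cell cannot be told apart.

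Histone chaperones carry new histones to chromatin. Of 19 genes, 7 were higher at 12 against 3 months and 6 at 24 against 3 months at an unadjusted p under 0.05, and 0 were lower. The shares of all genes that were higher were 11.4% in both comparisons. The median log2 fold changes were 0.21 and 0.11, against 0.02 for all genes in each. Both comparisons share the 3-month mice. Nap1l1, a chaperone of H2A and H2B, was 19.5 to 31.2 FPKM at 3 months, 29.6 to 39.7 FPKM at 12 months and 27.9 to 39.5 FPKM at 24 months. Rbbp7, a subunit of several histone-binding complexes, was 27.0 to 35.6 FPKM, 31.2 to 38.5 FPKM and 31.9 to 36.1 FPKM.

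Other factors make and remove the histone mRNAs. Of 20 genes of 3′ end processing and decay that were tested, 3 were higher at 12 against 3 months and 1 lower at 24 against 3 months. Slbp, the stem-loop binding protein, had log2 fold changes of -0.28 (SE 0.20) at 12 against 3 months and -0.17 (SE 0.21) at 24 against 3 months. Npat, the activator of histone gene transcription, had 0.02 (SE 0.09) and 0.03 (SE 0.10). Neither passed the test. Srrt and Sympk, the 2 highest genes of the list, ranged over 8.93 to 19.4 FPKM and 11.3 to 15.5 FPKM. Cstf2t, a cleavage factor subunit, was called higher at 12 against 3 months (log2 fold change 2.72, limma adjusted p = 0.101). At 24 against 12 months it was called lower (-2.10, limma adjusted p = 0.747). The shares of all genes called in these directions were 0.278% and 0.105%. Cstf2t was at 0 in all 5 young mice, at 8.87 to 9.92 FPKM in 4 mice at 12 months and at 7.50 FPKM in 1 old mouse. Its other values were 0, which can be failed estimates, and this was not tested.

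Replication-independent histone variants have mRNAs with a poly(A) tail. Of 11 genes, 1 was higher and 1 lower at 24 against 3 months, and 0 passed an unadjusted p of 0.05 in limma at 12 against 3 months, with a median log2 fold change of 0.07 in each against 0.02 for all genes. H3f3b, a gene of H3.3, was 33.6 to 80.1 FPKM at 3 months, 61.0 to 114 FPKM at 12 months and 31.4 to 96.7 FPKM at 24 months. H3f3a, the other H3.3 gene, ranged over 21.2 to 69.02 FPKM and H2afz over 17.5 to 31.1 FPKM in the 15 mice. H1f0, the linker variant of resting cells, was called lower at 24 against 3 months with a log2 fold change of -3.70 and an SE of 0.94 (limma adjusted p = 0.0973). It had 20.1 to 32.4 FPKM in all 5 young mice. At 12 months it had 0, 30.2, 33.6, 0 and 36.0 FPKM, and at 24 months it was at 0 in 4 of 5 mice, with the fifth at 33.2 FPKM. As for the histone genes, a value of exactly 0 can be a failed estimate, which was not tested.

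Library type bears on these genes because oligo(dT) selection removes RNA without a poly(A) tail. The sample labels describe depletion of ribosomal RNA with a stranded total RNA kit, whereas the methods of the study describe oligo(dT) selection. The values themselves held RNAs without a tail. Rn7sk was 2526 to 4058 FPKM at 3 months, 2678 to 5012 FPKM at 12 months and 0 to 4344 FPKM at 24 months. Rn7s1, the RNA of the signal recognition particle, was at 1374 to 2745 FPKM in 10 mice and at 0.000644 FPKM or less in the other 5. Of 8 such RNAs tested, 1 was higher (Terc) and 1 lower (Vaultrc5, called, log2 fold change -1.39) at 12 against 3 months, and 0 passed an unadjusted p of 0.05 in the other comparisons. Aligned bases were 5.03 to 6.13 Gb at 3 months, 5.84 to 8.03 Gb at 12 months and 6.07 to 7.33 Gb at 24 months, with the lowest median at 3 months and overlapping ranges. The part of depth in the values listed at 0 was not tested.

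Among the markers of other cells, those of B cells were higher at both later ages and some of macrophages at 12 months. Of 6 B cell markers, 5 were higher at 12 against 3 months and 6 at 24 against 3 months at an unadjusted p under 0.05, against 11.4% of all genes in each comparison. The median log2 fold changes were 0.67 and 0.54, against 0.02 for all genes. Their summed level, led by Igkc, was 10.2 to 93.8 FPKM at 3 months, 54.1 to 375 FPKM at 12 months and 87.5 to 200 FPKM at 24 months. Of 6 macrophage markers, C1qa and Lyz2 were called higher at 12 against 3 months, against 0.278% of all genes called higher. At 24 against 3 months 0 of the 6 passed an unadjusted p of 0.05 in limma. C1qb passed in neither comparison, with log2 fold changes of 0.59 (SE 0.48) at 12 and 0.31 (SE 0.56) at 24 against 3 months. The sum of the macrophage markers was 28.6 to 51.4 FPKM, 47.4 to 92.2 FPKM and 34.4 to 69.3 FPKM at 3, 12 and 24 months. Of 7 T cell markers, 1, Cd3e, was higher in both comparisons with 3 months, with sums of 1.71 to 5.29 FPKM, 4.26 to 5.79 FPKM and 3.25 to 9.94 FPKM. Neutrophil and erythroid markers had 0 genes past an unadjusted p of 0.05 in any limma comparison, with sums of 0 to 2.90 FPKM for neutrophils and 260 to 1391 FPKM for erythroid cells. S100a8, the most abundant neutrophil marker, reached 2.43 FPKM, and the globin Hbb-bs ranged over 120 to 559 FPKM. Elane was at 0 in every mouse at 3 and 24 months and Mpo in every mouse at 12 months. Of 10 tubule and glomerulus markers, Aqp2, the collecting duct water channel, was called lower at 12 against 3 months, against 0.221% of all genes. At an unadjusted p under 0.05, Slc5a2 was lower at 24 against 3 and at 24 against 12 months, against 3.47% and 3.36% of all genes. Slc12a1 was higher at 24 against 12 months, against 3.07%. The sum of the 10 markers was 2527 to 3198 FPKM over all mice. The part of these cells in the histone values was not tested.

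No circular RNA came from a member. The second deposited table lists 11929 circular RNAs from 4210 named host genes, and 0 of them had a replication-dependent histone gene as host.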

How the data were processed

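Kidney RNA libraries of 15 samples, 5 at each age, were sequenced. The deposited table gives, for each transcript assembled by the authors with StringTie, FPKM and per-base coverage in each mouse, and a second deposited table gives estimated counts of circular RNAs. The labels name ribosomal RNA depletion and the methods name oligo(dT) selection, and the methods also speak of pooled RNA. The processing notes name TopHat, TopHat2 and StringTie without versions. FPKM of a gene was the sum over transcripts of class code =, c, j or o. Ages were compared with limma 3.58.1 in R 4.3.3 (trend, log2(FPKM + 1), only the ages compared, genes above 0 in at least 1 mouse), with Benjamini-Hochberg adjustment over all genes tested. Calls required p under 0.05 before adjustment together with a log2 fold change beyond 1 in either direction. Exact permutation tests were 2-sided over all 252 assignments of 10 mice. Aligned bases were taken from the ratio of coverage to FPKM. The fits were tried on simulated data with normally distributed spread. Changes were placed only in genes with a mean log2(FPKM + 1) above 1. The simulated data did not copy the mix of 0 and high values, so they do not bear on genes with that mix. Stem-loops were searched in GENCODE M21. Text names the histone genes called in any comparison, the 3 of highest mean FPKM for each protein, and from each other list the called genes and the highest. Members and lists were chosen with earlier results of these data known. Alternatives were another pseudocount, filters on low values, TPM and median-ratio scaling, all mice in 1 fit, a robust prior, other class codes and each mouse left out.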

Additional observations from a re-analysis of the deposited data

Results flagged for a closer look

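In each age group of 5 mice, the highest and lowest values of the histone sums and named genes were compared with the nearest of the other mice. In 12 of 99 groups the gap was larger than Dixon's limit for 5 samples. The limit's rate of about 1 in 20 holds for separate groups of normally distributed values. Here the sums contain the named genes and many values are 0, so the count cannot be set against that rate. In 9 of the 12 the other 4 mice were all listed at 0, so the gap followed from a single value above 0.

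The summed H4 level of the 3-month replicate 7 was 31.3 FPKM, and the other 4 mice of that age had 56.6 to 64.7 FPKM. This replicate was listed at 0 for Hist1h4h and Hist1h4c. In the same mouse Hist1h4n had 2.78 FPKM and Hist1h1c 3.04 FPKM, with the other 4 mice at 0. The 3-month replicate 9 stood apart for Hist2h2ac with 4.78 FPKM, for Hist1h1e with 3.87 FPKM and for Hist1h2bk with 2.24 FPKM, where the others reached at most 0.546 FPKM. Hist1h1e also stood apart in the 12-month replicate 18 with 5.46 FPKM and in the 24-month replicate 33 with 4.70 FPKM. Hist1h3e had 2.11 FPKM in the 24-month replicate 31. Hist1h2bn had 0.166 FPKM in the 3-month replicate 6 and 1.03 FPKM in the 12-month replicate 19. Hist1h1t had 0.444 FPKM in the 24-month replicate 35 and at most 0.0579 FPKM in the others. The causes were not tested.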

How the results depend on the processing

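FPKM keep no read counts, so no counting interval is given and what depth limits in genes listed at 0 was not tested. With a pseudocount of 0.1, the histone genes called numbered 3 at 24 against 3 months, 6 at 12 against 3 months and 3 at 24 against 12 months. With TPM they numbered 3 at 24 against 3 months and 3 at 24 against 12 months. Shares of all genes are not given for these settings, for all 15 mice in 1 fit or for fits without a mouse. Those counts show only how the calls moved and are not a result about the histone genes. A filter on genes above 0 in every mouse compared was an alternative chosen after seeing the data. With it limma called 0 members at 24 against 3 months and 0 at 12 against 3 months. The shares of all genes so filtered that were called were 0.687% and 0.661%. Members at an unadjusted p under 0.05 numbered 1, 6 and 5 in the order 24 against 3, 12 against 3 and 24 against 12 months. Of all genes so filtered, 19.3%, 19% and 7.77% were past that p. With all 15 mice in 1 fit, 1 gene was past that p at 24 against 3 months. Leaving out each mouse in turn gave 0 to 2, 1 to 3 and 0 to 2 called genes in the same order, and 1 to 6, 8 to 13 and 3 to 11 genes past that p. Leaving out each mouse, the ratio of summed medians ranged from 0.805 to 1.06 for 24 over 3 months and from 1.29 to 1.43 for 12 over 3 months, and under the other scalings and class codes from 0.877 to 0.945 and from 1.32 to 1.48. Of 23 single-gene results, picked by their p in these same mice, all kept their direction in 417 recomputed values, which is no separate support. In at least 1 of the settings tried, 16 lost an unadjusted p of 0.05. The causes of these shifts were not tested. No paired analysis was possible because the ages share no replicate number.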
